A study of Mus musculus with 26 samples.

Results

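The genes described here encode 9 proteins by which leukocytes hold on to and cross the vessel wall: the integrin chains Itgal, Itgb2, Itga4, Itgb7 and Itgb1, the selectin ligand Selplg, and the immunoglobulin-type ligands Icam1, Icam2 and Vcam1. They were taken by name, and all 9 were found among the 55416 genes counted. All mice were C57BL/6 and had received B16F10, a mouse melanoma line, by vein, which gave metastases in the lung. The treated mice had received propranolol, a blocker of β-adrenoceptors, and the control mice no treatment. Polyadenylated RNA was sequenced from whole lung (5 propranolol and 5 untreated libraries), from lung monocytes isolated by flow sorting (4 and 4) and from lung CD4 T cells isolated with magnetic beads (4 and 4), 26 libraries in all. Dose, duration, age and whether libraries came from separate animals are not given in the labels, so the p-values reflect only how far these libraries varied, which may be technical.

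Rolling, arrest and crossing are separate steps of leukocyte recruitment. In the first, PSGL-1, the product of Selplg, binds selectins. In arrest, integrins on the leukocyte bind ligands on endothelium: αLβ2 (LFA-1, from Itgal and Itgb2) binds ICAM-1 and ICAM-2, α4β1 (VLA-4, from Itga4 and Itgb1) binds VCAM-1, and α4β7 (from Itga4 and Itgb7) binds MAdCAM-1 and VCAM-1. Itgb2 also pairs with other α chains in myeloid cells, and Itgb1 with many α chains in most tissues. The αL, α4, β2 and β7 chains are mainly made by leukocytes, whereas ICAM-1 is inducible in many cell types and VCAM-1 mainly in endothelium and stroma.

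The windows around the start sites of Icam1, Itga4 and Itgb7 are shown because Icam1 was higher with propranolol in all 3 kinds of material, and Itga4 and Itgb7 were lower with it in CD4 T cells. The RefSeq promoter table of build GRCm38.p6 held 4 of the 9 genes, and each window runs from 250 bases before to 50 bases after the start. The 4 motifs searched on both strands were GGAANNTCC (NF-kB type), TGACG (the short CRE motif, bound by CREB), TGANTCA (AP-1) and TGTGGT (RUNX). Capitals mark a match, which in Itga4 is TGTGGT read on the opposite strand.
Icam1 (chr9:21015690-21015989, plus strand): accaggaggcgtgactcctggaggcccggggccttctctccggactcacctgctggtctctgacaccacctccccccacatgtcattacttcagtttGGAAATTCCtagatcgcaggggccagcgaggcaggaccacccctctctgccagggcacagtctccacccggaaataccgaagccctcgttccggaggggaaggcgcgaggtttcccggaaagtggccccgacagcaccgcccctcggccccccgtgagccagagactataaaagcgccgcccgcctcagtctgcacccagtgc
Itga4 (chr2:79255176-79255475, plus strand): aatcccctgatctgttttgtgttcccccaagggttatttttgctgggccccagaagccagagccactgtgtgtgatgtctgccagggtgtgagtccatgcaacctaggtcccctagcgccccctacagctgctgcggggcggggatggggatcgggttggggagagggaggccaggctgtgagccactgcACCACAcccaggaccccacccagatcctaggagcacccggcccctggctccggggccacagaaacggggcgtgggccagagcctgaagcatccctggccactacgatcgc
Itgb7 (chr15:102231886-102232185, minus strand): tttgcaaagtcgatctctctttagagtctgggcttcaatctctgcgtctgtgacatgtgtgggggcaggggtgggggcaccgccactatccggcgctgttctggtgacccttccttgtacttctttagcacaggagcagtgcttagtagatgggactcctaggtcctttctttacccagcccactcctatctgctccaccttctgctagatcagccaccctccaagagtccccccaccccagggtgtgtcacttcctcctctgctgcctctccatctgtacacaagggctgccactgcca
The Icam1 window held 1 match to the NF-kB type motif, which 4.26% of 32851 promoter windows held. The Itga4 window held 1 RUNX match, as 16.8% of windows did, and the Itgb7 window held none of the 4 motifs. The fourth window, that of Itgb1, held 1 TGACG, found in 20.8% of windows, and AP-1 letters, found in 7.81%, were in none of the 4 windows. A match describes letters in the window and is no evidence of a bound site.

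Total counts per library lay between 29650148 and 43447855 in propranolol lung and between 33232082 and 47618634 in untreated lung, between 36277687 and 46407803 in propranolol and between 36371431 and 48306925 in untreated sorted libraries, and between 27742422 and 42484125 in propranolol and between 17625672 and 35600275 in untreated CD4 T cells. Markers did not match the label of the sorted libraries alone: besides Csf1r, a monocyte gene, at 594 ± 81.4 CPM with propranolol and 457 ± 49.4 CPM untreated, they held Cdh5, a gene of endothelium, at 1259 ± 14.6 CPM with propranolol and 1679 ± 51.2 CPM untreated (SD, n = 4 each). Tyrp1, a pigment gene of the melanoma, was at 1364 ± 255 CPM with propranolol and 1029 ± 64.6 CPM untreated. They are therefore called the libraries labelled monocytes. In those libraries, replicates 1 and 2 and replicates 3 and 4 of each treatment were far closer to each other than to the other pair, with chi-square per degree of freedom of 3.52 to 5.22 within pairs and 12.2 to 35.4 across them, so results there are also given with these pairs summed. In the CD4 T cell libraries Tyrp1 and the surfactant gene Sftpc were at 0 and Cdh5 at 0.902 ± 0.243 CPM with propranolol and 0.776 ± 0.236 CPM untreated (SD, n = 4 each). The T cell gene Cd3e was at 286 ± 35.4 CPM with propranolol and 290.0 ± 9.98 CPM untreated. Other T cell genes were less even: Cd4 was at 458 ± 55.5 CPM with propranolol and 644 ± 4.90 CPM untreated. Cd8a was at 12.2 ± 2.60 CPM with propranolol and 4.56 ± 0.904 CPM untreated. Sums of 10 T cell markers lay between 4484 and 4846 CPM with propranolol and between 3500 and 3553 CPM untreated. In the test used below, 7 of the 10 were higher and 0 lower. Among the propranolol libraries there, replicates 3 and 4 were close (chi-square per degree of freedom of 5.47), while replicates 1 and 2 lay far from these and from each other (37.8 to 139). The untreated libraries differed from each other by 4.86 to 7.03.

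The 3 kinds of material had their own order of these genes. Levels of different genes are compared in plain CPM (counts scaled to a fixed library total) per kilobase of the longest coding transcript. In untreated CD4 T cells Itgb7 ranked first at 234 ± 6.85, followed by Selplg at 194 ± 5.49, Itgb2 at 181 ± 4.66 and Itgal at 158 ± 3.75, and Vcam1 was last at 0.826 ± 0.240 (SD, n = 4). In untreated lung Itgb1 led at 257 ± 7.96, Icam1 was at 96.5 ± 19.7 and Icam2 at 41.3 ± 10.03, and Itgal, Itga4 and Itgb7 came last at 8.68 ± 3.91, 8.58 ± 1.96 and 5.14 ± 1.62 (SD, n = 5). In the untreated libraries labelled monocytes Itgb1 led at 284 ± 13.5, and Icam1, Itgb2 and Icam2 followed at 178 ± 9.56, 170.0 ± 17.0 and 154 ± 3.31 (SD, n = 4), of which Icam1 and Itgb2 lay within 1 SD of each other. Among the 9 genes, Itgb7, Selplg, Itgb2 and Itgal thus ranked highest within untreated CD4 T cells, and Itgb1, Icam1 and Icam2 within untreated lung.

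**Figure D1:**
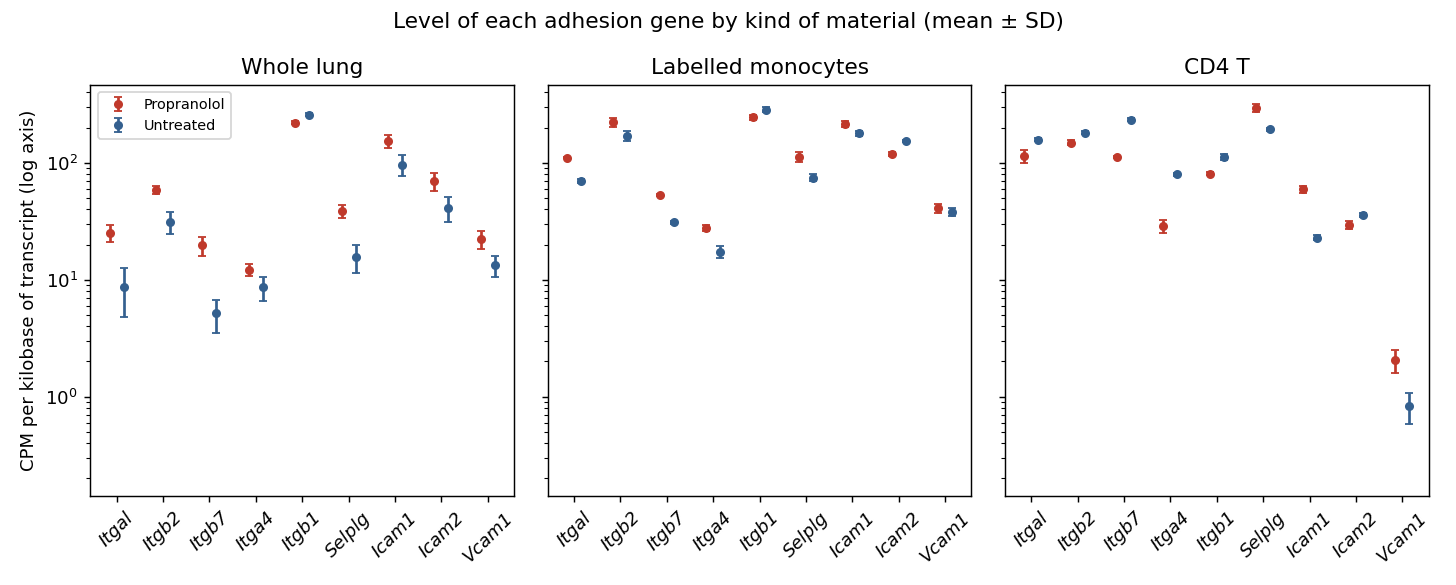
Level of each adhesion gene in plain CPM per kilobase of its longest coding transcript (log axis) in the 3 kinds of material, propranolol left of untreated; points are group means and bars the SD over 5 libraries in whole lung and 4 in the others. Itgb7 runs from 5.14 in untreated lung to 234 in untreated CD4 T cells, and Vcam1 has its lowest levels, 2.06 with propranolol and 0.826 untreated, in CD4 T cells.

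For single genes across the 6 groups, the order followed the material more than the treatment for most members. By plain CPM, Itgal ranked untreated CD4 T cells (823), propranolol CD4 T cells (595), propranolol and untreated libraries labelled monocytes (576 and 366), then propranolol and untreated lung (131 and 45.3), and only the propranolol groups of CD4 T cells and of the libraries labelled monocytes overlapped as neighbours. Itgb7 had the same order of groups, from 627 in untreated CD4 T cells to 13.8 in untreated lung, with no overlap between neighbours. Itga4 also had that order, from 775 in untreated CD4 T cells to 83.8 in untreated lung, with overlap between propranolol CD4 T cells (279) and propranolol libraries labelled monocytes (271) and between the lung groups. For Itgb2 propranolol libraries labelled monocytes ranked first (662), and untreated CD4 T cells (536), untreated libraries labelled monocytes (505) and propranolol CD4 T cells (441) overlapped their neighbours.
Selplg was highest in propranolol CD4 T cells (547), with 6 groups that did not overlap their neighbours and untreated lung lowest (29.1). Icam1 ran from 545 in propranolol libraries labelled monocytes to 57.8 in untreated CD4 T cells, and Vcam1 from 142 to 2.86 over the same groups. Icam2 was highest in untreated libraries labelled monocytes (198) and lowest in propranolol CD4 T cells (37.9). Itgb1 was at 934 in propranolol and 1084 in untreated libraries labelled monocytes, at 840 and 982 in propranolol and untreated lung and at 308 and 431 in propranolol and untreated CD4 T cells.

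Between untreated materials, all 9 genes were higher in the libraries labelled monocytes than in lung (edgeR quasi-likelihood test, Benjamini-Hochberg adjusted p below the threshold of 0.05), where 65.4% of all tested genes passed, 31.9% as higher and 33.6% as lower. None of the 9 overlapped between these groups, against 58.0% of tested genes without overlap. The log2 differences ran from 0.32 ± 0.08 (SE) for Itgb1 to 3.19 ± 0.27 for Itgal. Against untreated lung, untreated CD4 T cells had more RNA of 5 genes and less of 3, where 83.9% of all tested genes passed, 39.9% as higher and 44.0% as lower. All but Icam2 were without overlap, as were 78.3% of tested genes. Itgb7 was higher by 5.40 ± 0.20 on the log2 scale, Itgal by 4.08 ± 0.28, Selplg by 3.53 ± 0.17, Itga4 by 3.11 ± 0.15 and Itgb2 by 2.43 ± 0.14. Vcam1 differed by -4.13 ± 0.22, Icam1 by -2.19 ± 0.15 and Itgb1 by -1.30 ± 0.07, all lower in CD4 T cells. Icam2 differed by -0.30 ± 0.14 with an adjusted p of 0.0684, and passed when untreated lung replicate 1 (-0.38) or 2 (-0.36) was left out. The CD4 T cell libraries stand in a count table of their own, so material and table cannot be told apart.

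In whole lung, 7 of the 9 genes were higher with propranolol and 1, Itgb1, was lower, where 70.8% of all 18639 tested genes passed the test, 35.5% as higher and 35.3% as lower. Values below are CPM scaled by TMM within the comparison and are called scaled CPM. Because whole lung holds many cell types, fewer cells of a type and less RNA per cell cannot be told apart. The median change of the 9 genes was 0.57, against 0.03 over all tested genes.

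Among the integrin chains, Itgal, the α chain of LFA-1, had 119, 150.4, 124, 129 and 92.0 scaled CPM in propranolol lungs, against 35.8, 24.4, 79.1, 48.5 and 52.1 in untreated lungs. Every propranolol library was above every untreated one, and untreated replicate 3 was the nearest to the treated group. The log2 change was 1.35 ± 0.26 (SE), with an adjusted p of 0.000963. Its partner chain Itgb2 had 173, 175, 152, 169 and 143 scaled CPM with propranolol and 81.5, 118, 122, 80.7 and 90.5 untreated. These groups did not overlap either, and the change was 0.72 ± 0.13, with an adjusted p of 0.000608.
Itgb7 moved by the most of the 9 in lung: it had 43.3, 52.0, 50.9, 63.7 and 38.5 scaled CPM in propranolol lungs and 12.8, 9.75, 21.1, 13.2 and 16.4 in untreated lungs. The lowest treated library lay well above the highest untreated one. Its change was 1.76 ± 0.20, adjusted p = 8.98e-05.
Itga4, the α chain that pairs with β7 or β1, had 117, 123, 111, 92.0 and 115 scaled CPM with propranolol and 88.4, 56.5, 94.0, 104 and 103 untreated. The groups overlapped, since treated replicate 4 lay below 3 of the untreated libraries. The change of 0.32 ± 0.15 missed the threshold (adjusted p = 0.0731), and without treated replicate 4 it was 0.39 with an adjusted p of 0.0397. Itga4 also passed as higher with plain library sizes (0.51, adjusted p = 0.0142), with a filter at a mean of 5 CPM (0.46, adjusted p = 0.0220) and in 1 fit with the libraries labelled monocytes (0.43, adjusted p = 0.00517), so that 8 of the 9 genes then counted as higher.
Itgb1 was the member that fell: it had 779.8, 782, 826, 773 and 784 scaled CPM in propranolol lungs and 1103, 1108, 1014, 1019.9 and 999 in untreated lungs. The groups did not overlap, and the spread within each was narrow. Its change was -0.41 ± 0.07, adjusted p = 0.000602. With plain library sizes it was -0.22 (adjusted p = 0.0122).

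Selplg, the selectin ligand, had 67.3, 75.4, 65.4, 74.0 and 52.4 scaled CPM in propranolol lungs and 23.4, 34.8, 42.7, 27.3 and 26.4 in untreated lungs. Again the groups did not overlap. The change was 1.11 ± 0.16, adjusted p = 0.000227.
Of the vessel-side ligands, Icam1 had 338, 376, 382, 424 and 294 scaled CPM with propranolol and 196, 314, 305, 226 and 261 untreated. Untreated replicates 2 and 3 lay above treated replicate 5, so the groups overlapped, and the change was 0.48 ± 0.14 (adjusted p = 0.0104).
Icam2, a ligand of LFA-1 that endothelium makes without induction, was at 83.6 ± 15.3 scaled CPM in propranolol lungs and 56.3 ± 12.3 in untreated lungs (SD, n = 5 each), a change of 0.57 ± 0.16 with an adjusted p of 0.00747. Vcam1 was at 72.0 ± 12.8 scaled CPM with propranolol and 49.1 ± 9.01 untreated, a change of 0.55 ± 0.14 with an adjusted p of 0.00552. In both genes untreated replicate 3 was the highest of its group and overlapped the treated libraries. Groups did not overlap for 5 of the 9 genes, against 52.5% of all tested genes.

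**Figure D2:**
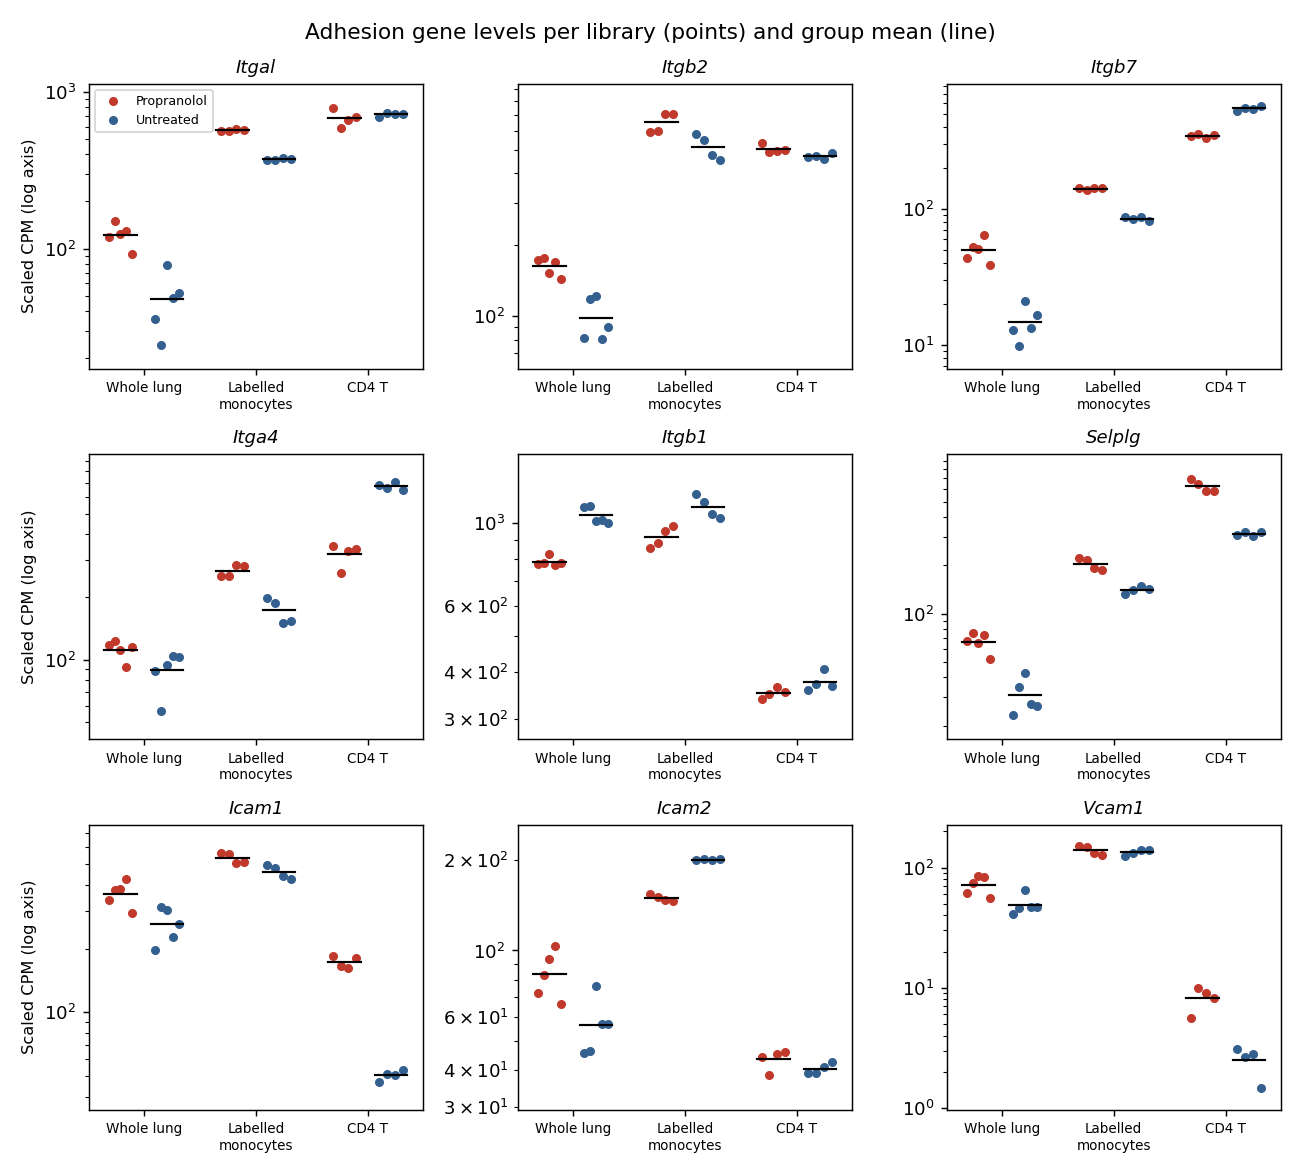
Scaled CPM of each adhesion gene in every library (points) with the group mean (line), propranolol left of untreated in each kind of material. In whole lung Itgal, Itgb2, Itgb7 and Selplg lie higher and Itgb1 lower in all 5 propranolol libraries than in all 5 untreated ones, and in CD4 T cells Itga4 and Itgb7 lie lower in all 4.

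The makeup of the lung libraries moved with these changes. The summed plain CPM of 12 melanocyte markers lay between 1236 and 11816 in propranolol lungs and between 17765 and 26893 in untreated lungs, and all 12 markers were lower. Sums of 10 T cell markers lay between 78.0 and 126 with propranolol and between 30.2 and 57.9 untreated, and all 10 were higher. Sums of 8 B cell markers lay between 191 and 276 with propranolol and between 42.5 and 70.7 untreated. Those of 8 neutrophil markers lay between 131 and 201 with propranolol and between 23.1 and 38.6 untreated. For 10 monocyte markers the sums were 4384 to 6238 with propranolol and 2111 to 3633 untreated, with 8 higher and 1 lower. All 7 NK cell markers were higher, with sums of 40.9 to 80.2 with propranolol and 13.8 to 24.1 untreated. Sums of 11 endothelial markers lay between 3449 and 5396 with propranolol and between 1592 and 3033 untreated, with 10 of 11 higher. On resident lung cell markers, as described next, 6 of the 10 T cell markers passed as higher, and all 8 B cell and all 8 neutrophil markers did. That scaling uses the summed counts of alveolar, endothelial and smooth muscle markers. The endothelial markers, of which 1 of 11 passed as higher, are thus part of their own scale. Their count there cannot show whether endothelium changed. The part of these cells in the changes of the adhesion genes was not tested beyond 2 other fits. When the melanocyte level entered as a covariate, 2797 of all 18639 tested genes passed, 1259 as higher, against 13189 and 6614 without it. The melanocyte sums of the treatments did not overlap, so this fit separates covariate and treatment poorly, and a lost call says little about a gene. Of the members, 2 still passed as higher, Itgb7 (1.24) and Selplg (0.81). Itgb1 still passed as lower (-0.42, adjusted p = 0.0287), and Itga4 was at 0.56 without passing (adjusted p = 0.122). Itgal (1.04) and Itgb2 (0.60) then had adjusted p of 0.0984 and 0.0643, and Icam1 (0.09), Icam2 (0.05) and Vcam1 (0.05) were near 0. Scaled on markers of resident lung cells in place of all genes, which moved the median of all genes to -0.74, Itgal (0.66) and Itgb7 (1.02) passed as higher, Selplg was at 0.36 (adjusted p = 0.0763), and Itgb2 (-0.04), Icam1 (-0.30), Icam2 (-0.18) and Vcam1 (-0.21) were below 0 without passing, as was Itga4 (-0.40). Itgb1 was lower by more, at -1.18 (adjusted p = 0.000693). In that scaling 14.0% of called genes were higher, against 50.1% with TMM and 63.4% with plain library sizes.

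In the libraries labelled monocytes, 6 of the 9 genes were higher with propranolol and 2, Itgb1 and Icam2, were lower, where 30.5% of all 18236 tested genes passed, 14.3% as higher and 16.1% as lower. The median change of the 9 genes was 0.34, against 0.02 over all tested genes. Groups did not overlap for 8 of the 9 genes, against 31.6% of all tested genes.
Itgal had 563, 559, 576 and 572 scaled CPM in propranolol libraries and 369, 367, 380.5 and 375 in untreated libraries. The values within a treatment differed little, and the groups lay far apart. The change was 0.61 ± 0.03 (SE), adjusted p = 5.58e-07. Itgb7 had 142, 137, 142 and 141 scaled CPM with propranolol and 87.1, 83.8, 86.9 and 80.9 untreated, and its change was 0.73 ± 0.04, adjusted p = 4.85e-07. The summed plain CPM of 10 T cell markers ran from 214 to 888 with propranolol and from 98.5 to 476 untreated. Only 1 of the 10 markers passed as higher, but their median change was 1.03 and libraries varied widely. Cd3e, for example, was at 50.7 ± 33.2 CPM with propranolol and 22.2 ± 14.6 CPM untreated (SD, n = 4 each).
Itga4 had 251, 252, 283 and 282 scaled CPM in propranolol libraries and 198, 187, 150.0 and 154 in untreated libraries. The groups did not overlap, but within each the 2 close pairs differed, with replicates 3 and 4 high among the treated and low among the untreated. The change was 0.63 ± 0.09, adjusted p = 0.000336. Itgb2 showed the same split: 592, 602, 708 and 705 scaled CPM with propranolol and 582, 550.2, 473 and 453 untreated. Treated replicate 1 exceeded untreated replicate 1 by little, and the change of 0.34 ± 0.09 had an adjusted p of 0.0144.
Itgb1 was lower in the treated libraries, at 919 ± 56.0 scaled CPM, against 1105 ± 74.1 in the untreated ones (SD, n = 4 each), a change of -0.26 ± 0.06 with an adjusted p of 0.00565.

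Selplg was at 204 ± 17.0 scaled CPM with propranolol and 141 ± 6.54 untreated, a change of 0.54 ± 0.06 with an adjusted p of 6.76e-05. Icam1 was at 536 ± 31.1 scaled CPM with propranolol and 460.1 ± 33.8 untreated, a change of 0.22 ± 0.06 with an adjusted p of 0.0163, and without untreated replicate 3 its adjusted p was 0.0514. Icam2 had 154, 151, 147 and 147 scaled CPM in propranolol libraries and 201, 201, 201 and 202 in untreated libraries. The untreated values were almost equal, and all treated values lay below them. The change was -0.43 ± 0.03, adjusted p = 5.08e-06. Vcam1 had 150.2, 149, 131 and 127 scaled CPM with propranolol and 125, 131, 139.5 and 139.6 untreated, overlapping ranges with a change of 0.06 ± 0.06 and an adjusted p of 0.504.
All 11 endothelial markers were lower in the treated libraries beside Icam2, their summed plain CPM lying between 5637 and 5658 with propranolol and between 7707 and 7871 untreated. All 8 B cell markers were higher, with sums of 429.8 to 469 in treated and 159 to 254 in untreated libraries, and so were all 7 NK cell markers, with sums of 66.2 to 102 in treated and 17.9 to 25.0 in untreated libraries. The part of these cells in the changes was not tested. With the close pairs summed to 2 against 2, Itgal (0.60), Itgb7 (0.72), Itga4 (0.62), Selplg (0.52) and Icam2 (-0.44) passed, and Itgb2, Itgb1 and Icam1 did not (adjusted p of 0.202, 0.176 and 0.228). In 1 fit with the lung libraries, which then shared the spread, Itgb7, Itga4, Selplg and Itgb1 passed, and Itgal, Itgb2, Icam1 and Icam2 did not (adjusted p of 0.110, 0.133, 0.368 and 0.0730).

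In CD4 T cells, 3 of the 9 genes were higher with propranolol, 2 were lower and 4 did not pass, where 60.0% of all 16550 tested genes passed, 30.1% as higher and 29.9% as lower. Selplg, Icam1 and Vcam1 were higher, and Itga4 and Itgb7, the chains of α4β7, were lower. The median change was 0.10, against -0.04 over all tested genes. Groups did not overlap for 6 of the 9 genes, against 56.4% of all tested genes.
Itga4 had 349.5, 260.2, 331 and 338 scaled CPM in propranolol CD4 T cells and 689, 663, 709.6 and 653 in untreated ones. No treated library came near the untreated range, and treated replicate 2 was the lowest. The change was -1.09 ± 0.09 (SE), adjusted p = 7.59e-07. Itgb7 had 344, 357, 335 and 347 scaled CPM with propranolol and 529, 555, 544 and 568 untreated. These groups were narrow and apart, with a change of -0.67 ± 0.05, adjusted p = 5.53e-07.
Itgal, by contrast, had 789, 585, 656 and 691 scaled CPM with propranolol and 694, 734, 727 and 726 untreated. Treated replicate 1 lay above all untreated libraries and the other treated libraries below them. The change of -0.08 ± 0.08 did not pass (adjusted p = 0.404), and without treated replicate 1 it was -0.16 with an adjusted p of 0.0421. Itgb2 was at 505 ± 21.6 scaled CPM with propranolol and 469.7 ± 12.2 untreated (SD, n = 4 each), a difference of 0.10 ± 0.05 with an adjusted p of 0.116. It passed as higher, at 0.13 and an adjusted p of 0.0388, without treated replicate 2. Itgb1 was at 352 ± 11.01 scaled CPM with propranolol and 377 ± 21.6 untreated, a difference of -0.10 ± 0.06 with an adjusted p of 0.165. With a filter at a mean of 5 CPM it passed as lower (-0.18, adjusted p = 0.0162).

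Selplg had 695, 646, 584 and 579 scaled CPM in propranolol CD4 T cells and 309, 321, 306 and 325 in untreated ones. All treated libraries lay far above the untreated ones, and the change was 0.99 ± 0.07, adjusted p = 2.08e-07. Icam1 had 185, 166, 162 and 180.2 scaled CPM with propranolol and 47.2, 51.0, 50.8 and 53.5 untreated. This gave the largest change of the 9 genes in CD4 T cells, 1.77 ± 0.07, adjusted p = 1.28e-09. Vcam1 was scarce, with 5.62, 9.90, 8.99 and 8.21 scaled CPM with propranolol and 3.12, 2.63, 2.81 and 1.46 untreated. The groups did not overlap, and the change was 1.71 ± 0.25, adjusted p = 0.000119. Icam2 was at 43.3 ± 3.42 scaled CPM with propranolol and 40.3 ± 1.73 untreated, a difference of 0.10 ± 0.08 with an adjusted p of 0.273.
Markers of other cells moved in the same libraries. Sums of plain CPM over 8 neutrophil markers lay between 860 and 1254 with propranolol and between 207 and 285 untreated, and those over 8 B cell markers between 511 and 629 with propranolol and between 201 and 255 untreated, with all markers of both lists higher. The 10 monocyte markers include Nr4a1, an immediate early gene, at 3062 ± 306 plain CPM with propranolol and 94.4 ± 2.91 untreated (SD, n = 4 each), and the other 9 summed to between 953 and 1056 with propranolol and between 428 and 557 untreated. The endothelial sum, in plain CPM, lay between 133 and 144 with propranolol and between 206 and 218 untreated. With TMM, 3 of the 8 endothelial markers tested were lower and 0 higher (median -0.23). Cdh5 was at only 0.902 ± 0.243 CPM with propranolol and 0.776 ± 0.236 CPM untreated. Other genes of the list thus made up nearly all of this sum, which may not measure endothelium. The sum of 6 fibroblast markers lay between 2.12 and 15.8 with propranolol and between 1.54 and 2.36 untreated, and all 4 of them that were tested were higher, with a median change of 2.86. The part of these cells in the changes was not tested.

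The scaling set how many of these genes counted as lower in CD4 T cells. TMM made treated libraries 0.867 to 0.879 of their plain size and untreated libraries 1.14 of theirs, and with plain library sizes the median of all genes was -0.42. On that scale Icam1 (1.39), Vcam1 (1.32) and Selplg (0.60) were still higher and Itga4 (-1.47) and Itgb7 (-1.06) still lower, while Itgal (-0.47), Itgb1 (-0.49), Itgb2 (-0.28) and Icam2 (-0.28) also passed as lower, so that Itgb2 and Icam2 changed sign. Of all called genes 26.4% were then higher, against 50.2% with TMM.

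**Figure D3:**
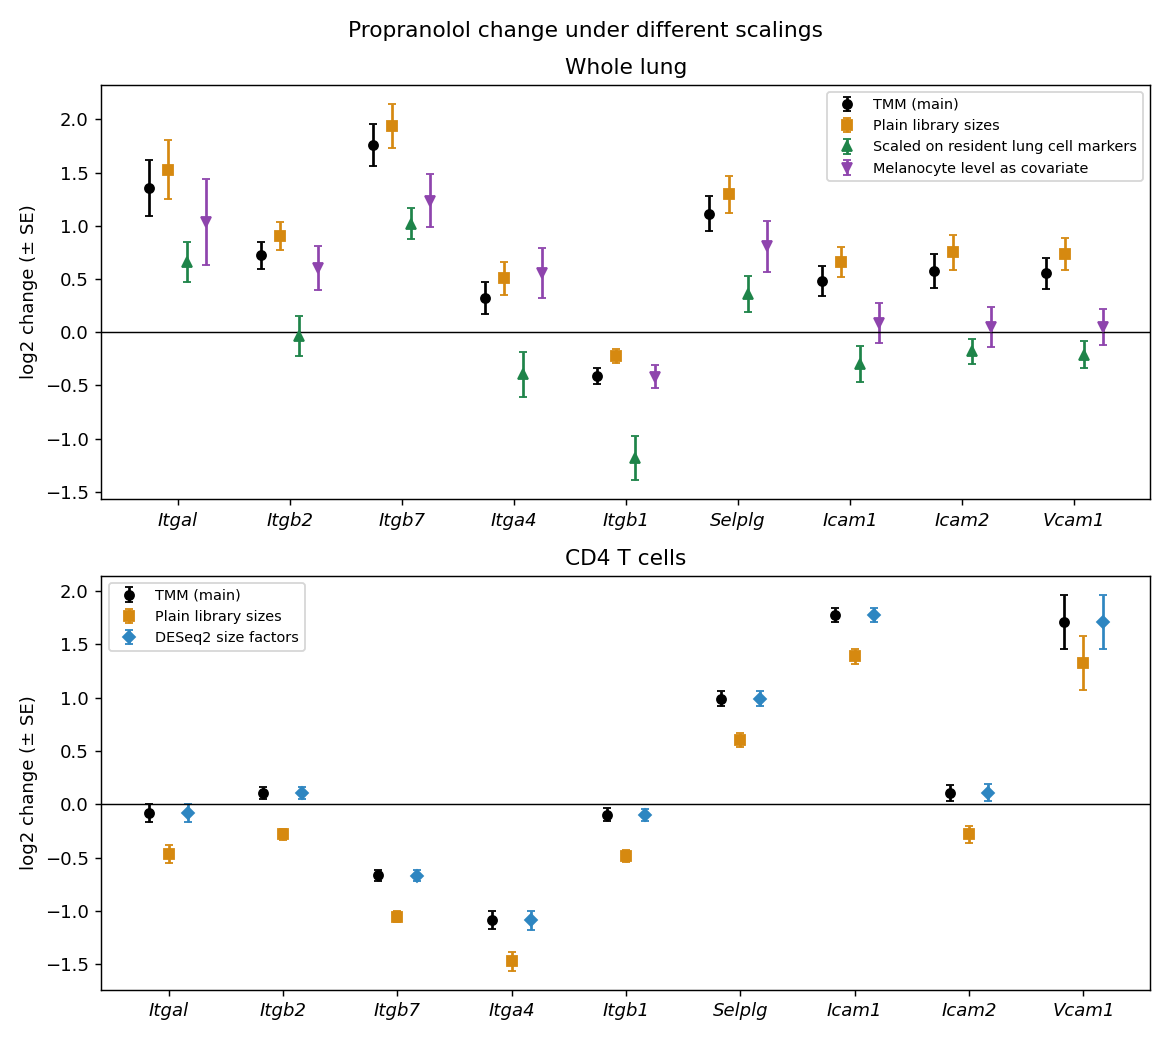
Log2 change, propranolol over untreated, with its standard error, of each adhesion gene in whole lung (upper) and CD4 T cells (lower) with TMM, with other scalings and, in lung, with the melanocyte level as a covariate. In CD4 T cells plain library sizes move all 9 genes down, and in whole lung scaling on resident cell markers brings Itgb2, Itga4, Icam1, Icam2 and Vcam1 below 0.

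Across the 3 kinds of material, which share no libraries, Selplg and Icam1 were higher with propranolol in each, 2 of 9 genes, against 2.35% of the 14595 genes tested in all of them. Their changes were 1.11 and 0.48 in lung, 0.54 and 0.22 in the libraries labelled monocytes and 0.99 and 1.77 in CD4 T cells. The call of Icam1 did not hold in lung on resident markers or with the covariate, nor in the libraries labelled monocytes with pairs summed, in 1 fit with lung, or without untreated replicate 3. Selplg passed in all alternatives run for these 3 comparisons except in lung on resident markers. Itgb7 passed in all 3 with its direction turned in CD4 T cells, and no member was lower in all 3, as 116 genes were.

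**Figure D4:**
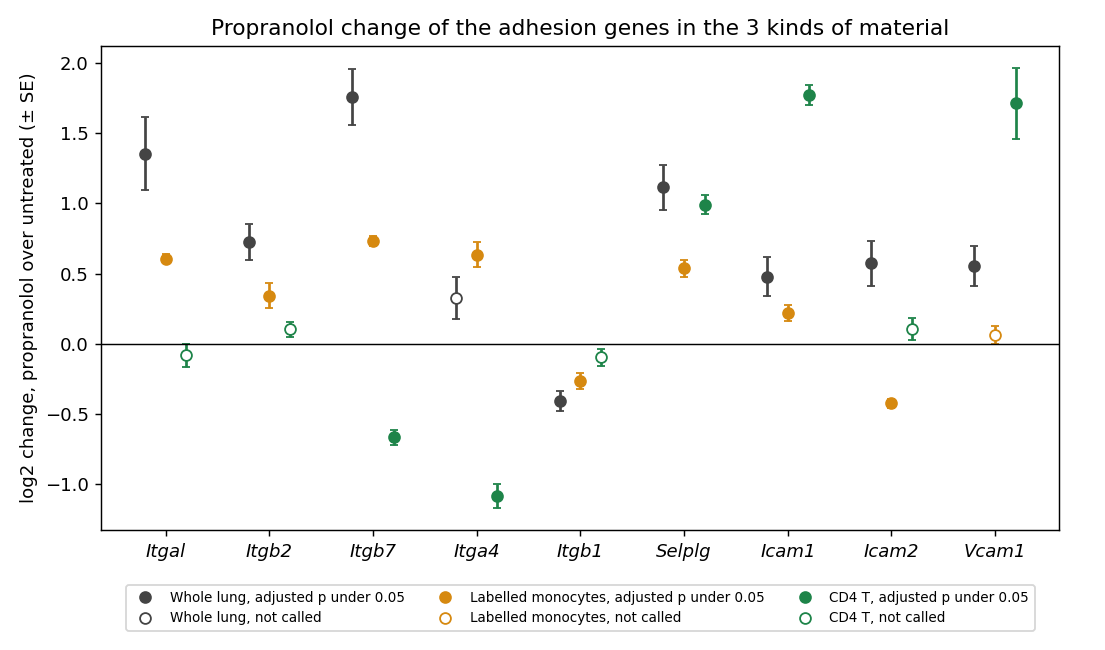
Log2 change, propranolol over untreated, with its standard error for the 9 adhesion genes in the 3 kinds of material; filled points passed an adjusted p of 0.05 and open points did not. Itgb7 lies at 1.76 in lung, 0.73 in the libraries labelled monocytes and -0.67 in CD4 T cells, and Icam1 at 0.48, 0.22 and 1.77.

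The difference between materials was tested in 1 fit per pair. In CD4 T cells against lung, the change of 5 genes was lower and that of 2 higher, where 56.2% of all tested genes passed, 32.2% as lower and 24.0% as higher. That fit placed the median of all genes at -0.26, so each difference is read against that value. Itgb7 differed by -2.60 ± 0.25 (adjusted p = 1.01e-07), Itgal by -1.60 ± 0.33 (0.000488), Itga4 by -1.57 ± 0.20 (2.46e-06), Itgb2 by -0.79 ± 0.17 (0.000708) and Icam2 by -0.64 ± 0.23 (0.0218). Icam1 differed by 1.12 ± 0.20 (8.95e-05) and Vcam1 by 0.99 ± 0.30 (0.00928) in the other direction. Selplg (-0.30 ± 0.22) and Itgb1 (0.14 ± 0.09) did not pass, with adjusted p of 0.262 and 0.198. With TMM within each material the median was -0.09, Itgb1 passed (0.31) and Icam2 did not (-0.47, adjusted p = 0.0515).
In the libraries labelled monocytes against lung, the change of 6 genes was lower and of 0 higher. Here 57.4% of all tested genes passed, 32.3% as lower and 25.2% as higher, and the median of all genes was -0.17. That median depended on the scaling. It was -0.05 with TMM within each material and lay between -0.18 and 0.003 with single libraries left out. Icam2 differed by -1.12 ± 0.20 (adjusted p = 0.000195) and Itgb7 by -1.15 ± 0.24 (0.000554), and both passed without any single library and with the pairs summed. Selplg (-0.70 ± 0.21), Vcam1 (-0.62 ± 0.20), Itgal (-0.87 ± 0.31) and Itgb2 (-0.50 ± 0.18) had adjusted p of 0.00907, 0.0123, 0.0229 and 0.0286. None of these 4 passed with the pairs summed, and on resident markers in lung none of the 6 passed as lower.

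Ratios of 2 genes within a library do not depend on scaling and were tested by two-sided exact permutation over libraries, 15 tests with Benjamini-Hochberg adjustment. The smallest p these designs allow is 0.00794 with 5 against 5 and 0.0286 with 4 against 4. The libraries labelled monocytes entered as 4 against 4 in spite of their close pairs. Ratios were not tested with these pairs summed, so the p-values there treat all 4 libraries of a group as independent. In lung, Itgb7 per Itgb1 (per kilobase) averaged 0.0896 ± 0.0179 with propranolol and 0.0201 ± 0.00658 untreated, and Itgb2 per Itgb1 averaged 0.265 ± 0.0267 with propranolol and 0.121 ± 0.0246 untreated (SD, n = 5 each). Neither ratio overlapped between the groups (both with an exact p of 0.00794, adjusted 0.0298). In CD4 T cells Itgb7 per Itgb1 was lower, at 1.40 ± 0.0680 with propranolol and 2.08 ± 0.130 untreated, and Itgb2 per Itgb1 was higher, at 1.84 ± 0.131 with propranolol and 1.61 ± 0.117 untreated (SD, n = 4 each). Both were higher in the libraries labelled monocytes, with Itgb7 per Itgb1 at 0.218 ± 0.0126 with propranolol and 0.109 ± 0.00608 untreated, and Itgb2 per Itgb1 at 0.909 ± 0.0374 with propranolol and 0.597 ± 0.0323 untreated (SD, n = 4 each). None of these 4 overlapped (exact p = 0.0286 and adjusted 0.0330 for each). Itga4 per Itgb7, the chains of α4β7, averaged 0.641 ± 0.161 in propranolol lungs and 1.72 ± 0.351 in untreated lungs (exact p = 0.00794, adjusted 0.0298), again without overlap. It was also lower in CD4 T cells, at 0.255 ± 0.0365 with propranolol and 0.340 ± 0.0213 untreated (exact p = 0.0286, adjusted 0.0330). The ratio of Itga4 to Itgb1, the chains of VLA-4, was higher with propranolol in lung (0.0553 ± 0.00583 with propranolol against 0.0335 ± 0.00841 untreated) and in the libraries labelled monocytes (0.113 ± 0.00214 with propranolol against 0.0607 ± 0.00459 untreated). It was lower in CD4 T cells, at 0.355 ± 0.0475 with propranolol against 0.704 ± 0.0302 untreated. All 3 were without overlap, with adjusted exact p of 0.0298, 0.0330 and 0.0330.
For Itgal per Itgb2, the chains of LFA-1, propranolol CD4 T cells were at 0.765 ± 0.0663 and untreated ones at 0.873 ± 0.0281 (exact p = 0.0286, adjusted 0.0330). In lung this ratio was 0.429 ± 0.0507 with propranolol and 0.281 ± 0.102 untreated, with overlap (exact p = 0.0159, adjusted 0.0330). Untreated replicate 2, at 0.118, was the lowest, and without it the log2 difference was 0.42 in place of 0.71. In the libraries labelled monocytes neither Itgal per Itgb2 (0.498 ± 0.0421 with propranolol and 0.417 ± 0.0553 untreated, exact p = 0.114) nor Itga4 per Itgb7 (0.522 ± 0.0309 with propranolol and 0.558 ± 0.0720 untreated, exact p = 0.4) passed.

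**Figure D5:**
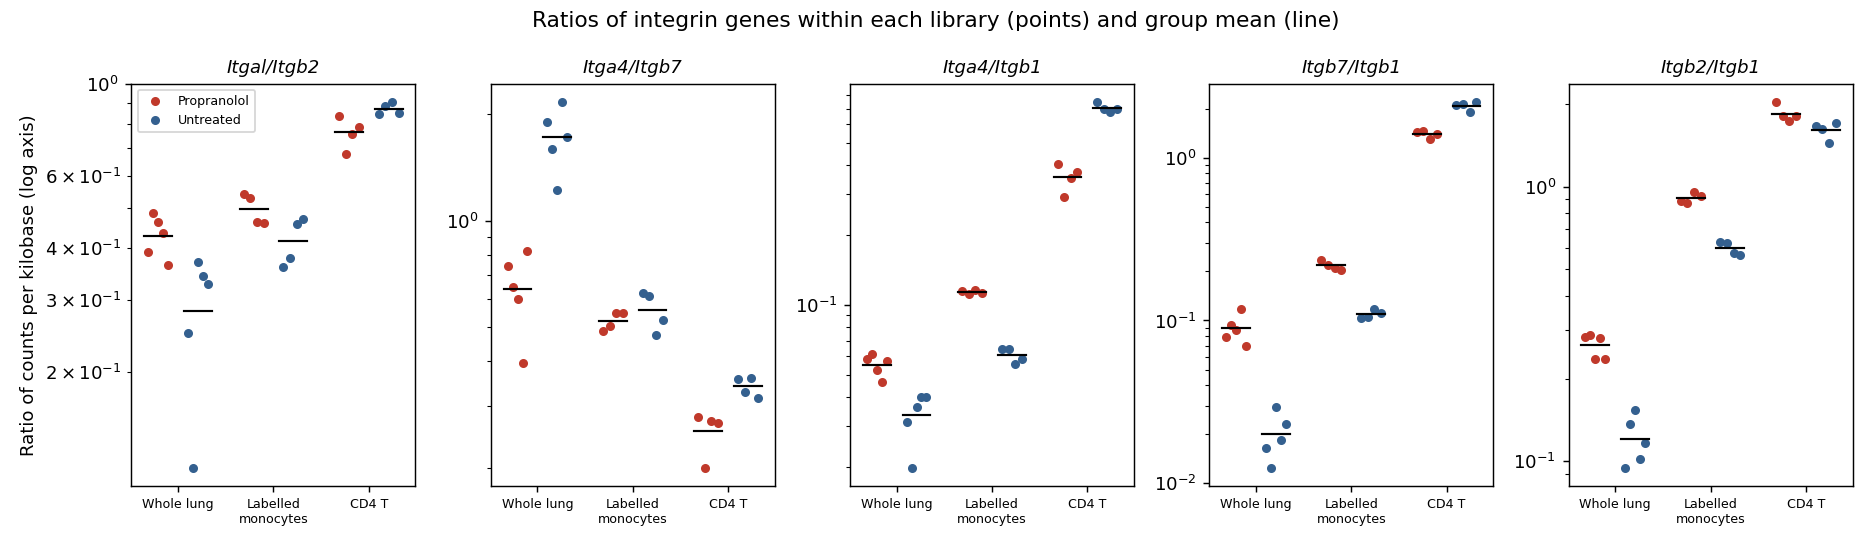
Ratios of counts per kilobase between integrin genes in every library (points, log axis) with the group mean (line), propranolol left of untreated in each kind of material. Itga4/Itgb1 lies higher with propranolol in whole lung and in the libraries labelled monocytes and lower in CD4 T cells, at 0.355 against 0.704.

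Another 4 lists of adhesion genes give the surroundings of these 9. Their counts are read against the shares over all tested genes. These were 35.5% higher and 35.3% lower in lung, 14.3% and 16.1% in the libraries labelled monocytes, and 30.1% and 29.9% in CD4 T cells. Several of the counts, mainly in CD4 T cells, lie near these shares. Of 19 other integrin chains, 12 were higher and 2 lower in propranolol lung (median 0.49). Itgax, an α partner of β2 on myeloid cells, changed by 1.12 ± 0.12, Itgae, the other α partner of β7, by 1.52 ± 0.20, and Itga2b, a platelet chain, by 1.89 ± 0.21. Itgav (-1.20 ± 0.15) and Itga5 (-0.63 ± 0.14), chains that bind matrix proteins, were the 2 that fell. In the libraries labelled monocytes 2 were higher and 8 lower (median -0.18), with Itga3 (-0.67 ± 0.04), Itga8 (-0.62 ± 0.07) and Itga1 (-0.37 ± 0.05) among the lower ones. In CD4 T cells 6 were higher and 5 lower of 17 tested (median 0.01): Itgav (2.09 ± 0.09) and Itgb8 (1.54 ± 0.13), which pair to activate TGF-β, rose, and Itgb3 (-0.52 ± 0.09) fell.
Of 16 selectins and genes of their glycan ligands, 5 were higher and 3 lower among 15 tested in lung, 7 and 5 among 16 in the libraries labelled monocytes, and 6 and 5 among 15 in CD4 T cells. Fut7, which makes the sugar that selectins bind, was higher in lung (1.53 ± 0.27) and lower in CD4 T cells (-1.61 ± 0.24). It was scarce, at 1.73 scaled CPM with propranolol and 0.597 untreated in lung. In CD4 T cells it was at 1.35 scaled CPM with propranolol and 4.13 untreated. Cd44, the hyaluronan receptor, had directions opposite to those of Fut7, -1.04 ± 0.20 in lung and 1.43 ± 0.06 in CD4 T cells. Glycam1, a mucin-like protein of high endothelial venules, was at 31.4 ± 2.18 scaled CPM with propranolol and 3.15 ± 1.99 untreated in the libraries labelled monocytes (SD, n = 4 each), a change of 3.34 ± 0.37.
Of 15 other immunoglobulin-type and junction ligands, 13 were tested in each material. In lung 8 were higher and 1 lower, with Pecam1, a junction protein of endothelium, at 0.77 ± 0.15 and Cd47 at 0.66 ± 0.13. In the libraries labelled monocytes 1 was higher and 9 lower, including Pecam1 (-0.42 ± 0.04), Cdh5 (-0.46 ± 0.04) and Esam (-0.41 ± 0.03), endothelial junction genes that moved as Icam2 did. CD4 T cells had 3 higher and 5 lower, with Alcam at 0.84 ± 0.12 and Cd226, an activating receptor, at -1.40 ± 0.11.
Of 19 genes that act on integrin activation or downstream of it, some of them as restraints, 14 were higher and 0 lower in lung (median 0.90, against 0.03 over all genes), 10 were higher and 2 lower in the libraries labelled monocytes (median 0.30), and 7 were higher and 5 lower of 18 in CD4 T cells (median 0.01). In lung Rasgrp2 (1.83 ± 0.19), the exchange factor of Rap1 downstream of calcium, and Fermt3 (1.09 ± 0.12), the kindlin of blood cells, were higher. Cytip (1.82 ± 0.05), which sequesters cytohesin-1 and restrains adhesion through LFA-1, and Rap1b (1.49 ± 0.08) rose in CD4 T cells, while Fermt3 (-0.97 ± 0.06), Tln1 (-0.81 ± 0.07), the talin that binds integrin tails, and Apbb1ip (-0.74 ± 0.06), which links Rap1 to talin, fell. All genes named from these 4 lists passed the edgeR test with TMM. With plain library sizes each named gene kept its direction and passed, though in CD4 T cells the medians of the 4 lists then lay between -0.44 and -0.36, and the counts of higher and lower genes were 4 and 7, 3 and 9, 3 and 6, and 4 and 10 in the order of the lists. Of all 16550 genes tested there, 2886 were then higher and 8064 lower. On resident markers in lung the counts were 3 and 7, 2 and 8, 2 and 4, and 6 and 8. Of all 18639 tested genes 1766 were then higher and 10839 lower. Itgax (0.35), Fermt3 (0.33), Pecam1 (0.00) and Cd47 (-0.10) no longer passed, and Cd47 was below 0. Pecam1, like Cdh5 of the same list, is one of the markers that set this scaling, so its value there is partly built in.

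Over the 26 libraries, each member was set beside the gene whose log2(CPM + 1) ran most like it. The highest Pearson r was 0.997 between Itgal and Fmnl1, and for Selplg 0.994 with Ptk2b. Itgb7 was closest to Sp110 (0.992), Itgb2 to Ncf4 (0.987) and Itga4 to Zfp36l2 (0.972). Vcam1 was closest to Tgm2 (0.994), Itgb1 to Adgrl2 (0.992), Icam2 to Impdh1 (0.990) and Icam1 to Sowahc (0.989). The libraries fall into 3 kinds of material that share their level differences, and no test was made. Genes that overlap members on the opposite strand in the annotation were scarce. Cerkl, beside Itga4, reached 6.60 CPM at most, and the partners of Icam1 and Vcam1 stayed below 0.658 CPM. In CD4 T cells Cerkl was lower with propranolol, as Itga4 was. It lay between 0.757 and 2.24 CPM with propranolol and between 4.48 and 6.60 CPM untreated, while Itga4 averaged 279 and 775 CPM. The strand setting of the counting was not stated.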

How the data were processed

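Per the labels' protocols, poly(A) RNA libraries came from a NEBNext kit and were read on a NovaSeq machine. Raw counts, whole numbers for each gene, were deposited in 2 tables, the CD4 T cell libraries in a table of their own, and the values were not normalized. The submitters' processing notes name STAR 2.7.9, featureCounts, Subread 2.0.3 and GRCm39. The columns matched 26 sample titles.

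Each comparison used its own libraries only: filterByExpr (minimum count 10), TMM scaling and the quasi-likelihood test of edgeR 4.0.16 (R 4.3.3), with Benjamini-Hochberg adjustment over all tested genes and a threshold of 0.05. Differences between materials were interactions in a fit of 4 groups. Ratios were tested with scipy 1.17.1. Levels per kilobase use the longest coding transcript of GENCODE vM21 (GRCm38), a different build from that of the counts. Scripts were tested on simulated counts.

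The 9 genes, the other lists and the alternatives were chosen with earlier results of these data known. From each other adhesion list the called genes with the smallest p are named, up to 3 per direction, if they averaged 1 CPM or more. Not all that this rule names are printed. Alternatives were DESeq2 1.42.0 (size factors and test), limma-voom (limma 3.58.1), other filters and scalings, a replicate block, a melanocyte covariate in lung and each library left out. Plain library sizes, summed monocyte pairs, TMM within each material, the ratios and the lists under other scalings were added after seeing the data. Replicate libraries differed by more than sampling noise, and each was counted as 1 sample. One of the genes covered by the naming rule is not reported here.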

Additional observations from a re-analysis of the deposited data

Results flagged for a closer look

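In 3 of the 54 groups of 4 or 5 libraries examined (9 genes in 6 groups), a single library lay far from the others by Dixon's criterion, which by chance marks about 1 group in 20. Itgb7 had 137 scaled CPM in propranolol replicate 2 of the libraries labelled monocytes, just below the other 3, which were nearly equal. Itgb1 had 826 scaled CPM in propranolol lung replicate 3, above the other 4. Vcam1 had 64.6 scaled CPM in untreated lung replicate 3, above the other 4. None of these calls changed without that library.

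The propranolol change differed between materials by an interaction test in edgeR in 13 cases. Between the libraries labelled monocytes and lung the differences were -0.87 for Itgal, -0.50 for Itgb2, -1.15 for Itgb7, -0.70 for Selplg, -1.12 for Icam2 and -0.62 for Vcam1. Of these, Itgb2 lost its call without any of 10 of the 18 libraries (untreated lung replicates 1, 4 and 5, propranolol lung replicates 1, 4 and 5, and replicates 1 and 2 of both monocyte-labelled groups, down to -0.27). Itgal lost its call without any of 8, the same libraries other than propranolol lung replicate 5 and propranolol monocyte-labelled replicate 2, and was then as low as -0.61. Vcam1 lost it without untreated lung replicate 1 (-0.39), propranolol lung replicate 4 (-0.40) or untreated monocyte-labelled replicate 2 (-0.45). In the fits without a call of Itgal or Vcam1, the median of all genes lay between -0.06 and 0.003, against -0.17 with all libraries. The same held for Itgb2, except without propranolol monocyte-labelled replicate 2 (-0.18). The library left out and the shift in scaling cannot be told apart. Itga4 (0.31) and Icam1 (-0.46) gained a call without untreated lung replicate 2. Between CD4 T cells and lung the differences were -1.60 for Itgal, -0.79 for Itgb2, -2.60 for Itgb7, -1.57 for Itga4, 1.12 for Icam1, -0.64 for Icam2 and 0.99 for Vcam1. No library left out ended one of these 7 calls, and Selplg gained one, at -0.45, without untreated lung replicate 3.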

How the results depend on the processing

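Of the results for the 9 genes and their counts in 7 comparisons, 1163 values under an alternative were marked as unchanged. Another 24 gained a call, 53 lost one or moved, and 11 were marked as changed in sign. A change of sign without a call in either fit was marked as unchanged, as for Itga4 in lung on resident markers (-0.40, against 0.32). In lung, resident scaling reversed Itgb2 (-0.037), Icam1 (-0.30), Icam2 (-0.18) and Vcam1 (-0.21) and left 2 genes higher. With the melanocyte covariate 2 genes were higher, Itgb1 was lower and 2797 of all genes passed. In the libraries labelled monocytes, 1 fit with lung gave 3 higher and 1 lower (2069 of all genes), and summed pairs gave 1 lower (1377). The replicate block gave 1 lower there (3544 of all genes, against 5553 without it). The labels share replicate numbers, but same-numbered libraries did not deviate together throughout. Correlations were -0.48 to -0.26 in the libraries labelled monocytes, -0.10 to 0.53 in lung and -0.03 to 0.04 in CD4 T cells. In lung, replicates 1 (0.47) and 3 (0.53) did deviate together and the others did not. The numbers are therefore not taken as pairs. In CD4 T cells plain library sizes gave 6 lower and reversed Itgb2 (-0.28) and Icam2 (-0.28). For monocyte-labelled libraries minus lung, 3 genes were lower with no filter, 2 with summed pairs, and 0 lower and 3 higher with resident scaling, which reversed Itgb2 (0.38), Selplg (0.18), Icam1 (0.52) and Vcam1 (0.27). Leaving out single libraries gave 3 to 7 lower and 0 to 1 higher. For CD4 T cells minus lung, 1 gene was higher with limma-voom or plain library sizes, and plain library sizes reversed Itgb1 (-0.26). In untreated CD4 T cells against lung, 10631 of all genes passed with a mean of at least 5 CPM, where fewer genes are tested. Other causes were not tested. No ratio changed sign when a library was left out. Depth limits the precision of low values such as Vcam1 in CD4 T cells, at 1.46 to 9.90 scaled CPM.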
